A study of Mus musculus with 17 samples.

Results

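The hippocampus of all mice that carry 3 copies of a segment of chromosome 16 was compared with that of wild-type (WT) mice. The 11 duplication mice, which are the members of the comparison, are all such mice of the 17 in the series, and they were pooled by genotype alone, with no measured value. Of these 11, 6 are Dp16 mice, a model of Down syndrome. The other 5 are Dp16_2xIFNRs mice, which carry the same duplication but have the dosage of the interferon receptor genes brought back to normal. The remaining 6 mice are WT of the strain C57BL/6J, and the labels name no strain for the duplication mice. The labels name no treatment, and the mice were 17.1 to 18 weeks old. There were 3 females and 3 males in WT and in Dp16, and 3 females and 2 males in Dp16_2xIFNRs.

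The pooled comparison asks which genes differ with the duplication, whatever the number of interferon receptor genes. Genes of the segment are present in 3 copies in place of 2, so that a transcript that simply follows its gene's copy number is 1.5-fold, or 0.58 on the log2 scale, above WT. The segment carries the mouse counterparts of many genes of human chromosome 21, the chromosome that is present in an extra copy in Down syndrome. Genes elsewhere in the genome keep their normal copy number. In the hippocampus, a structure needed for memory, the known products of the segment act at synapses, in protein turnover, in transcription and in innate immunity.

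Polyadenylated RNA of each hippocampus was counted per gene, in 1 library per mouse, with 30382648 to 33148281 counts. CPM are counts divided by the scaled size of the library. A gene was called, and is said below to have risen or fallen, when edgeR's quasi-likelihood test with sex in the model gave a Benjamini-Hochberg adjusted p under 0.05 over 18979 genes, 118 of them in the segment. Where a call ended when 1 library was left out, those libraries are named, with the range of the adjusted p over all alternatives run, other tools included. The 4 receptor genes Ifnar1, Ifnar2, Ifngr2 and Il10rb were set aside. Their log2 fold changes against WT were 0.54 to 0.65 in Dp16 and -0.02 to 0.16 in Dp16_2xIFNRs, so no pooled value describes them. Hippocampal markers such as Prox1 of granule cells and Wfs1 of CA1 neurons were at 42.5 CPM or more in every library. In 3 libraries, WT replicate 6, Dp16 replicate 6 and Dp16_2xIFNRs replicate 5, markers of choroid plexus, the tissue that secretes cerebrospinal fluid, were almost lacking (mean log2 level 0.31 to 1.12, against 4.62 to 5.88 in the rest). WT replicate 4 had the highest level of thalamus and habenula markers (4.56, against 3.05 to 3.62).

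Genes of the segment rose together. Of 118 tested genes, edgeR called 66, or 55.9%, all of them higher, and the rest of the genome gave 0.604%. The 97 genes whose mean reached 1 CPM had a median of 0.57 on the log2 scale (quartiles 0.45 and 0.64), or 1.48-fold, and 95 were positive. In 54 genes, or 45.8% of the segment's, all 11 duplication mice lay above all 6 WT mice. By class, 62 of 88 protein-coding genes were called and 4 of 30 others. None of the 21 genes with a mean under 1 CPM was called by edgeR.

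Each mouse was also given 1 value, the median of its log2 ratios to the mean of WT over these 97 genes. WT mice had values of -0.04 to 0.04 (SD 0.0245, n = 6). They form their own reference, so their values centre near 0 by construction. Duplication mice had values of 0.53 to 0.59, with a mean of 0.56 (SD 0.0179, n = 11). The groups were thus far apart in relation to the spread between mice, with a difference of 0.56. A two-sided permutation test gave p = 8.08e-05, the smallest that 12376 assignments allow. The WT reference was kept fixed over the assignments, so this p is approximate. The plot of the segment by mouse and by gene position shows the narrow spread between mice beside the value of each gene.

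**Figure D1:**
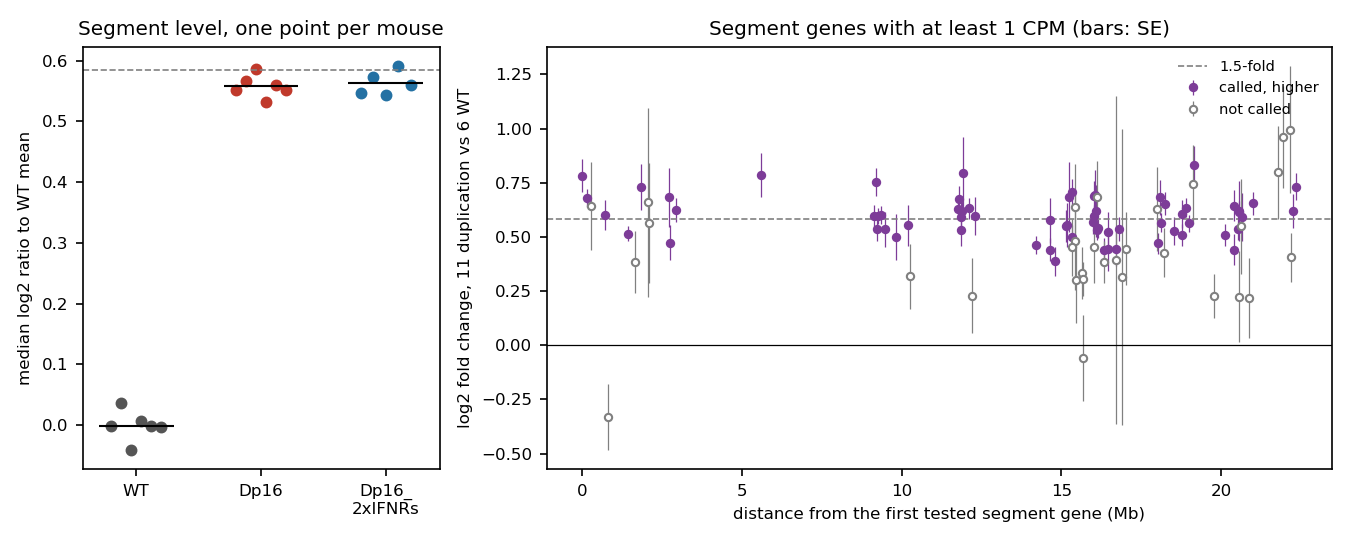
Left, for each mouse (1 point) the median, over 97 segment genes of 1 CPM or more, of its log2 ratio to WT, with a bar at each group's mean; the duplication mice sit at 0.53 to 0.59 and the WT mice at -0.04 to 0.04. Right, the log2 fold change of each of these genes with its SE against its distance in Mb from the first tested gene of the segment; the 66 called genes are filled and the dashed line marks 1.5-fold.

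App, the precursor of the amyloid beta peptide, had the highest level of the segment genes named here. Its lowest, median and highest levels were 1710.2, 1735 and 1846 CPM in WT and 2509.7, 2702 and 2859 CPM in duplication mice, and no duplication mouse reached down to the WT range. App rose by 0.60 ± 0.04 (SE; edgeR adjusted p = 1.05e-08). Adamts1, a protease of the extracellular matrix, rose by 0.55 ± 0.09 (SE; edgeR adjusted p = 0.00276). Bace2, a protease that can cleave App, was at 0.80 (edgeR adjusted p = 0.0945) on the log2 scale and Adamts5, a related matrix protease, at 0.32 (edgeR adjusted p = 0.358). The list of amyloid precursor and proteases thus had 2 of 4 tested members called. Over the whole segment 55.9% of tested genes were called, and 70.5% of the protein-coding ones.

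Among kinases and signalling proteins, edgeR called 6 of 10, beside 55.9% of all tested segment genes and 70.5% of the protein-coding ones. Dyrk1a, a protein kinase of neuronal development, lay at 80.5, 83.7 and 92.5 CPM in WT (lowest, median, highest) and at 117, 123 and 134 CPM with the duplication. All 11 mice were above all 6, and Dyrk1a rose by 0.56 ± 0.04 (SE; edgeR adjusted p = 1.05e-08). Synj1, the lipid phosphatase synaptojanin of vesicle recycling, lay at 397, 451 and 552 CPM and at 720.1, 753 and 844 CPM in the same order, again with no overlap, a rise of 0.71 ± 0.06 (SE; edgeR adjusted p = 2.35e-07). The endocytic scaffold Itsn1 rose by 0.54, the calcineurin inhibitor Rcan1 by 0.54, the Rac activator Tiam1 by 0.46 and the kinase Hunk by 0.39. Values that did not pass were 0.41 for Prdm15, 1.00 for the kinase Ripk4, 0.55 for Sh3bgr and 0.22 for Ripply3.

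Channels, receptors and transporters had 4 of 6 members called, beside 55.9% of all tested segment genes and 70.5% of the protein-coding ones. Kcnj6, the potassium channel subunit GIRK2, lay at 26.2, 29.2 and 35.8 CPM in WT (lowest, median, highest) and at 43, 55.8 and 60.6 CPM with the duplication. Its groups did not overlap, and its rise of 0.83 ± 0.09 (SE; edgeR adjusted p = 4.56e-06) was the largest of the called segment genes. Grik1, a kainate receptor subunit, rose by 0.60, Wrb (Get1), which helps insert tail-anchored proteins into membranes, by 0.62, and the inositol transporter Slc5a3 by 0.45. The call of Slc5a3 ended without any 1 of 11 libraries, all but WT replicates 1 and 4, Dp16 replicates 5 and 6 and Dp16_2xIFNRs replicates 1 and 5 (edgeR adjusted p up to 0.114, without WT replicate 5; 0.00123 to 0.157 over 37 alternatives). Clic6 and Kcne2, which are expressed in choroid plexus, had log2 fold changes of 0.32 ± 0.68 and 0.39 ± 0.76 (SE) and ran from 2.37 to 119.8 CPM and from 0.128 to 38.3 CPM within WT. The summed level of choroid plexus markers ran from 229 to 8983 CPM in the same WT mice, and its part in these values was not tested.

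Adhesion molecules had 6 of 8 called, beside 55.9% of all tested segment genes and 70.5% of the protein-coding ones. Dscam, a homophilic adhesion molecule of neurites, rose by 0.65 ± 0.05 (SE; edgeR adjusted p = 1.23e-07), Ncam2 by 0.79, the junctional protein Jam2 by 0.75, the glycosyltransferase B3galt5 by 0.59, the junctional receptor Cxadr by 0.68 and Eva1c by 0.68. For the first 4 of these the 11 mice lay above all WT mice. The call of Cxadr ended without WT replicates 1, 3 or 5 (edgeR adjusted p up to 0.0638, without WT replicate 5; 2.26e-05 to 0.0638 over 37 alternatives), and that of Eva1c without any 1 of 13 libraries, all but WT replicate 4, Dp16 replicate 4 and Dp16_2xIFNRs replicates 3 and 4 (edgeR adjusted p up to 0.154, without WT replicate 3; 0.000695 to 0.204 over 37 alternatives). The claudin Cldn14 and Igsf5, both under 1 CPM, had values of 0.24 and 0.07 that did not pass.

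The list of chromatin and transcription genes had 14 of 22 called, and all 22 were positive. Over the whole segment 55.9% of tested genes were called, and 70.5% of the protein-coding ones. Of the 97 segment genes of at least 1 CPM, 95 were positive. Gabpa, a transcription factor of mitochondrial genes, lay at 36.5, 39.2 and 40.3 CPM in WT (lowest, median, highest) and at 54.1, 58.9 and 62 CPM with the duplication. These ranges did not touch, and Gabpa rose by 0.60 ± 0.04 (SE; edgeR adjusted p = 7.15e-09). Also called were the heme-regulated repressor Bach1 (0.63), the methyltransferase N6amt1 (0.63), Morc3 (0.65), Zbtb21 (0.73), the nucleosome-binding protein Hmgn1 (0.54), the splicing regulator Rbm11 (0.78), Ets2 (0.51), Brwd1 (0.64), the nuclear receptor corepressor Nrip1 (0.60), Mis18a (0.55), the splicing factor Son (0.69), Urb1 (0.55) and Scaf4 (0.58). Olig1 and Olig2, which direct the formation of oligodendrocytes, had values of 0.30 (edgeR adjusted p = 0.0718) and 0.33 (edgeR adjusted p = 0.215). Runx1 was at 0.45, the endothelial factor Erg at 0.23, Setd4 at 0.63, Paxbp1 at 0.64, Sim2 at 1.12 and Chaf1b at 1.07, and none of these passed.

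All 13 tested genes of metabolism and mitochondria rose, and 12 of them had no overlap between the groups, the ribosomal protein Mrps6 (0.52) being the exception. Over the whole segment 55.9% of tested genes were called, 70.5% of the protein-coding ones, and 45.8% had all 11 mice above all WT mice. Hspa13, a chaperone, lay at 50.7, 57.1 and 58.2 CPM in WT (lowest, median, highest) and at 84.1, 89.7 and 95.6 CPM with the duplication, a rise of 0.68 ± 0.04 (SE; edgeR adjusted p = 3.82e-09) and the lowest adjusted p of the named segment genes. Sod1, the cytosolic superoxide dismutase, lay at 116, 128 and 139 CPM and at 159.8, 178 and 198 CPM in the same order. It rose by 0.44 ± 0.05 (SE; edgeR adjusted p = 2.79e-05). The subunits of ATP synthase Atp5j and Atp5o rose by 0.54 and 0.44, the purine synthesis enzyme Gart by 0.60, the carbonyl reductases Cbr1 and Cbr3 by 0.47 and 0.68, the biotin ligase Hlcs by 0.53, Mrpl39 by 0.60, Cryzl1 by 0.53, Pigp by 0.51 and Dnajc28 by 0.69.

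Proteostasis and trafficking genes had 12 of 16 called, beside 55.9% of all tested segment genes and 70.5% of the protein-coding ones. Cct8, a subunit of the chaperonin that folds actin and tubulin, rose by 0.62 ± 0.04 (SE; edgeR adjusted p = 1.05e-08), from a mean of 177 to 272 CPM. The deubiquitinases Usp25 and Usp16 rose by 0.51 and 0.53, the ubiquitin ligases Ltn1 and Ttc3 by 0.67 and 0.60, the sorting protein Vps26c by 0.63, the proteasome assembly factor Psmg1 by 0.44, Tmem50b by 0.57, Rwdd2b by 0.59, Btg3 by 0.47, Donson by 0.62 and Cyyr1 by 0.50. The call of Cyyr1 ended without WT replicates 1, 3 or 6 (edgeR adjusted p up to 0.073, without WT replicate 1; 0.000719 to 0.13 over 37 alternatives). Pcp4, a calmodulin-binding protein of neurons, was at 0.22 (edgeR adjusted p = 0.678), and Samsn1 (0.64), Mrap (0.59) and Map3k7cl (0.32) did not pass either. WT mice ran from 88.7 to 226 CPM in Pcp4, and the duplication mice lay inside that range.

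Of the interferon-induced GTPases in the segment, edgeR called 0 of 2, with both at an unadjusted p under 0.05, 2 called by DESeq2 and 0 by limma-voom. On the log2 scale Mx2 was at 0.96 (edgeR adjusted p = 0.0551) and Mx1 at 1.62 (edgeR adjusted p = 0.109). Mx1 is annotated as a polymorphic pseudogene in this genome. Both are low, with WT means of 0.727 and 0.206 CPM.

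Departure from the copy ratio was tested by asking whether each gene differed from 1.5-fold. EdgeR called 2 of the 118 segment genes, or 1.69%, with p adjusted over the segment, and 19 had an unadjusted p under 0.05. Both called genes lay below the ratio, and neither codes for protein: the processed pseudogene Gm9843 (-0.33 against WT, unadjusted p against the ratio = 6.56e-06) and the long noncoding RNA Gm49708 (-0.58, unadjusted p = 4.57e-05). The lowest unadjusted p among protein-coding genes was that of Olig1 (0.00159), followed by Erg (0.00181), both below the ratio. Kcnj6 (0.00847), Rbm11 (0.0136) and Jam2 (0.0151) stood above it. Without WT replicate 1 edgeR called 5 genes, with Olig1, Erg and Gm15966 added, and without WT replicate 2, Dp16 replicate 3, Dp16 replicate 5 or Dp16_2xIFNRs replicate 1 it called 4.

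Just before the first gene of the segment, the long noncoding RNA Gm49678 (chromosome 16, 75388544 to 75447293) ends 93.2 kb away. It was singled out after its values were seen. Gm49678 rose by 1.04 ± 0.23 (SE; edgeR adjusted p = 0.0228), and all 11 duplication mice lay above all WT mice (0.342 to 1.28 CPM in WT, 1.28 to 1.96 CPM with the duplication). That call ended without WT replicates 1, 3 or 5 (edgeR adjusted p up to 0.0777, without WT replicate 3; 0.000624 to 0.184 over 37 alternatives). The next tested gene on that side, Robo2, an axon guidance receptor, had a value of 0.12 (edgeR adjusted p = 0.305), and the 3 tested genes just past the other end had none that passed.

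Outside the segment few genes were called. EdgeR called 114 of 18861 genes, or 0.604%: 65 rose (0.345%) and 49 fell (0.26%). At an unadjusted p under 0.05 there were 2485 (13.2%). The median size of a called change was 0.38 on the log2 scale, and 99 of the called genes code for proteins. In 42 of them the groups did not overlap, 26 with all 11 mice higher and 16 with all 11 lower, while such separation was seen in 30 (0.159%) and 18 (0.0954%) of all genes outside the segment. All 114 had the same direction in females and in males, which selection by a test that pools the sexes favours. The counts depended on single WT libraries, since 39 genes rose without WT replicate 3, 40 without WT replicate 5 and 99 without WT replicate 2, and 24 fell without WT replicate 3, 30 without WT replicate 5 and 83 without WT replicate 4 (74 without Dp16 replicate 5).

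**Figure D2:**
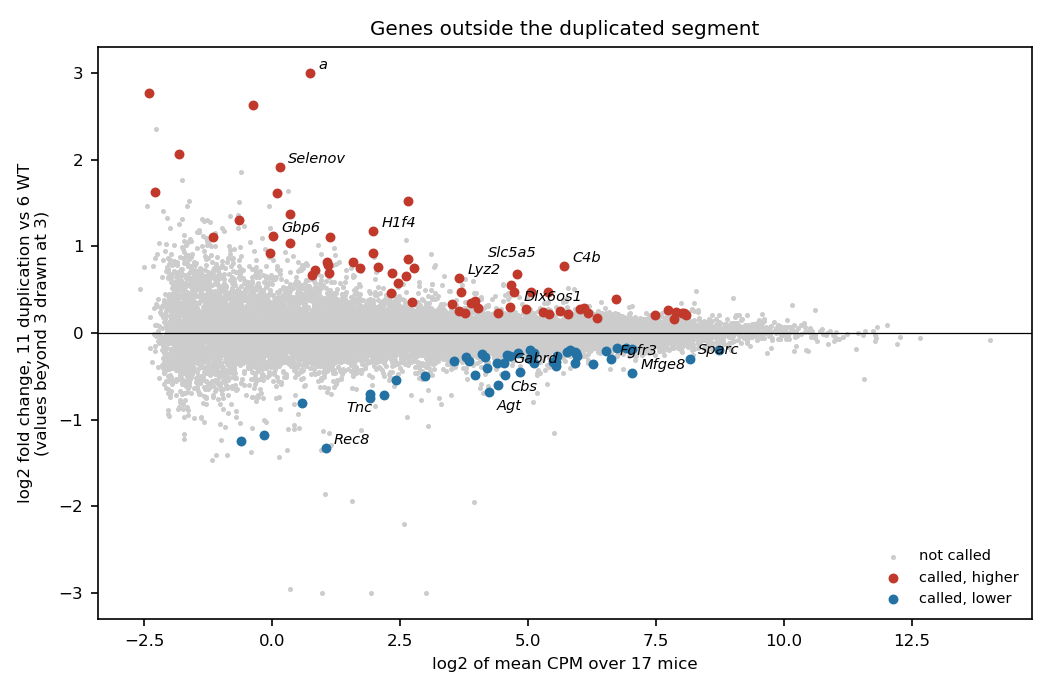
Log2 fold change of the 11 duplication mice against 6 WT mice, plotted against the log2 of the mean CPM, for the 18861 tested genes outside the segment, with values beyond 3 drawn at 3. The 65 genes called higher are red and the 49 called lower are blue; a lies at the upper edge, and most called genes of high expression lie close to the line at 0.

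The largest rise was that of a, which encodes agouti, a secreted antagonist of melanocortin receptors known from coat colour (ENSMUSG00000027596.10, chromosome 2, 154791402 to 155051012, GRCm38). The 6 WT libraries held 3 counts in all and at most 1 each. None reached 10, the minimum of the count filter, so this gene was tested only through the duplication libraries. The 11 duplication libraries held 896 counts, with 69 to 107 in each, a ratio per total count of 165 (95% interval 56.1 to 800, counting error only). The strain C57BL/6J carries the nonagouti allele of this gene. The labels give no strain for the duplication mice, so a difference in strain and the duplication cannot be told apart here. The same limit applies to every other gene called outside the segment. It also applies to values within the segment, the departures from the copy ratio included. No other member of the melanocortin pathway list was called, among 13 tested, beside 0.604% of all genes outside the segment. The level of a differed between the duplication genotypes by -0.13 (95% interval -0.51 to 0.24) on the log2 scale. Necab3, a neuronal calcium-binding protein whose gene lies on the same chromosome (chromosome 2, 154544399 to 154558890), fell by 0.40 ± 0.08 (SE; edgeR adjusted p = 0.0181), a call that ended without WT replicates 1, 3 or 5 (edgeR adjusted p up to 0.0768, without WT replicate 1; 0.000775 to 0.107 over 37 alternatives).

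Among the 15 largest rises, Selenov, a selenoprotein, lay at 0.282, 0.362 and 0.556 CPM in WT (lowest, median, highest) and at 0.870, 1.35 and 2.33 CPM with the duplication. The lowest duplication mouse was above the highest WT mouse, and Selenov rose by 1.91 ± 0.24 (SE; edgeR adjusted p = 6.45e-05). Slc25a34, a mitochondrial carrier, lay at 3.17, 3.99 and 5.38 CPM and at 6.60, 7.32 and 9.35 CPM, without overlap, a rise of 0.85 ± 0.11 (SE; edgeR adjusted p = 5.13e-05). Tfcp2l1, a transcription factor of epithelia and stem cells, lay at 4.19, 4.75 and 5.25 CPM and at 6.28, 7.84 and 9.64 CPM. Its groups were also apart, and it rose by 0.75 ± 0.09 (SE; edgeR adjusted p = 1.34e-05). These 3 calls held without each single library and under all 37 alternatives.

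C4b, the mouse gene of complement component C4 (ENSMUSG00000073418.4, chromosome 17, 34728380 to 34743882), lay at 28.9, 36.7 and 41.8 CPM in WT (lowest, median, highest) and at 46.5, 60.2 and 78.6 CPM with the duplication. All 11 mice were above all WT mice. C4b rose by 0.77 ± 0.10 (SE; edgeR adjusted p = 0.000118), and the separate fold changes, which share the WT mice, were 0.68 in Dp16 and 0.88 in Dp16_2xIFNRs. Lrp2, the endocytic receptor megalin, lay at 0.607, 1.23 and 2.13 CPM and at 2.01, 2.70 and 3.87 CPM in the same order. It rose by 1.11 ± 0.21 (SE; edgeR adjusted p = 0.00838) with 8 of 11 mice above the WT range. Slc6a12, a transporter of betaine and GABA, lay at 0.382, 0.629 and 0.783 CPM and at 0.571, 1.68 and 2.38 CPM, with 10 of 11 mice above the WT range and a rise of 1.37 ± 0.26 (SE; edgeR adjusted p = 0.00802).

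The remaining large rises were less steady. Fgl2, a fibrinogen-like protein, rose by 0.76, a call that ended without WT replicate 3 (adjusted p = 0.0606; 0.000199 to 0.184 over 37 alternatives, edgeR). Angptl4, an inhibitor of lipoprotein lipase, rose by 0.75, a call that ended without WT replicates 3, 5 or 6 (edgeR adjusted p up to 0.0698, without WT replicate 5; 0.000612 to 0.124 over 37 alternatives). Nat1, an arylamine acetyltransferase, rose by 0.78, a call that ended without any 1 of 11 libraries, all but WT replicates 3 and 6, Dp16 replicates 3 and 6 and Dp16_2xIFNRs replicates 1 and 2 (edgeR adjusted p up to 0.123, without WT replicate 5; 0.00391 to 0.222 over 37 alternatives). Exoc3l4 rose by 0.70, a call that ended without any 1 of 11 libraries, all but WT replicates 2 and 4 and Dp16 replicates 1, 2, 5 and 6 (edgeR adjusted p up to 0.0984, without WT replicate 5; 0.00294 to 0.404 over 37 alternatives). Pabpc5, a poly(A)-binding protein encoded on the X chromosome, rose by 0.73 with an adjusted p of 0.05 to 3 digits in edgeR, and the call ended without any 1 of 15 libraries, all but WT replicate 2 and Dp16_2xIFNRs replicate 5 (edgeR adjusted p up to 0.147, without WT replicate 3; 0.000624 to 0.221 over 37 alternatives). In each of these 5 genes the groups overlapped.

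Histone genes were among the rises. Most histone transcripts of dividing cells carry no poly(A) tail, so that this library type measures them in part. Of 15 tested histone genes, 3 were called, all higher, and the list's median was 0.06 (0.0387 without WT replicate 2 to 0.0833 without WT replicate 5). Outside the segment 0.345% of all genes were called higher. The linker histone H1f4 lay at 1.38, 2.11 and 3.13 CPM in WT (lowest, median, highest) and at 2.08, 5.06 and 7.86 CPM with the duplication and rose by 1.18 ± 0.24 (SE; edgeR adjusted p = 0.0168). H2ac6 rose by 0.82 ± 0.11 (SE; edgeR adjusted p = 0.000149) and the linker histone H1f2 by 0.47 ± 0.09 (SE; edgeR adjusted p = 0.00659). In each, 10 of 11 mice lay above the WT range. The 3 genes lie within 1 cluster on chromosome 13, with 58909 bases between H1f4 and H2ac6 and 54860 between H2ac6 and H1f2, and histone genes have near-identical copies, so that reads may be split between them. The call of H1f4 ended without WT replicates 3 or 5 (edgeR adjusted p up to 0.0638, without WT replicate 5; 4.27e-05 to 0.163 over 37 alternatives).

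**Figure D3:**
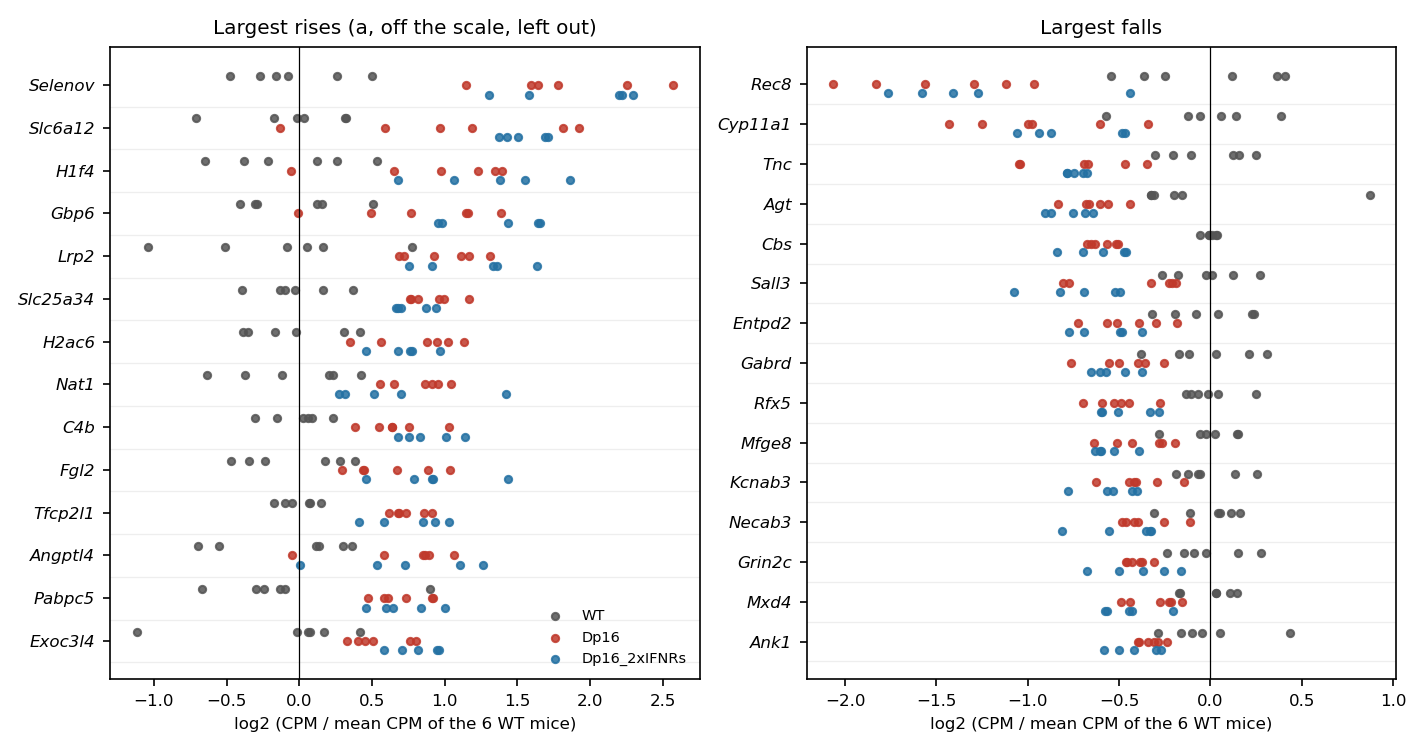
Each mouse's log2 ratio of CPM to the mean CPM of the 6 WT mice, for the 15 largest rises (a left out, since it is off the scale) and the 15 largest falls outside the segment, with WT in gray, Dp16 in red and Dp16_2xIFNRs in blue. In Selenov, Slc25a34, Tfcp2l1 and C4b no duplication mouse reaches the WT mice, and Cbs shows the narrowest WT spread of the falls.

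Among the falls, Cbs was the clearest. It encodes cystathionine beta-synthase, which removes homocysteine and stands on human chromosome 21, but its mouse gene is on chromosome 17 (31608894 to 31637238; ENSMUSG00000024039.15) and so has 2 copies in these mice. Cbs lay at 26, 27.1 and 27.8 CPM in WT (lowest, median, highest) and at 15.1, 18 and 19.7 CPM with the duplication. No duplication mouse reached the WT range. Cbs fell by 0.60 ± 0.05 (SE; edgeR adjusted p = 4.59e-07), with -0.60 in females and -0.59 in males. Of 44 tested counterparts of human chromosome 21 genes on mouse chromosomes 10 and 17, Cbs was the only one called, and the median of that list was 0.02 (0.00849 without WT replicate 6 to 0.0231 without Dp16 replicate 5). It was also the only one called of 28 genes of homocysteine and one-carbon metabolism. Over all genes outside the segment 0.604% were called.

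Rec8, a cohesin subunit of meiosis, lay at 2.32, 3.25 and 4.47 CPM in WT (lowest, median, highest) and at 0.808, 1.27 and 2.49 CPM with the duplication, and 10 of 11 mice lay below the WT range. It had the largest fall of the named genes, 1.33 ± 0.21 (SE; edgeR adjusted p = 0.000763). Tnc, the matrix protein tenascin C, lay at 4.93, 6.14 and 7.23 CPM and at 2.94, 3.74 and 4.77 CPM, with no overlap, and fell by 0.72 ± 0.10 (SE; edgeR adjusted p = 0.000299). Rfx5, a transcription factor of MHC class II genes, lay at 17.4, 18.6 and 22.7 CPM and at 11.8, 13.4 and 15.8 CPM. Here too all 11 mice were below all WT mice, and Rfx5 fell by 0.48 ± 0.07 (SE; edgeR adjusted p = 0.000613). Mxd4, a partner of Max that represses transcription, fell by 0.36 and the membrane skeleton protein Ank1 by 0.35, with overlap between the groups. The transcription factor Sall3 fell by 0.55 and the ectonucleotidase Entpd2 by 0.49. Both of these calls ended without WT replicate 3 (edgeR adjusted p = 0.0564 and 0.0594; 0.000239 to 0.225 and 0.000261 to 0.163 over 37 alternatives).

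Agt, the gene of angiotensinogen, which astrocytes make in the brain, lay at 19.9, 20.9 and 45.6 CPM in WT (lowest, median, highest) and at 13.4, 15.6 and 18.4 CPM with the duplication. The groups did not overlap, and the high WT value is that of WT replicate 4, the library with the highest thalamus and habenula markers. Agt fell by 0.68 ± 0.15 (SE; edgeR adjusted p = 0.0334), and the call ended without WT replicate 3, Dp16 replicates 4, 5 or 6 or Dp16_2xIFNRs replicates 2, 3, 4 or 5 (edgeR adjusted p up to 0.0713, without WT replicate 3; 0.000394 to 0.403 over 37 alternatives). Without WT replicate 4 the call held with a fall of 0.43 (edgeR adjusted p = 0.00138). Cyp11a1, the enzyme that begins steroid synthesis, fell by 0.81 ± 0.17 (SE; edgeR adjusted p = 0.0197), and its call ended without WT replicates 1, 4 or 5 (edgeR adjusted p up to 0.0535, without WT replicate 1; 0.00133 to 0.132 over 37 alternatives). The predicted gene Gm17322, which overlaps Cyp11a1 on the same strand, fell as well, and reads of the 2 genes cannot be told apart where they overlap.

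Ion channel and receptor genes that fell belong to several families. The share called over all genes outside the segment, 0.604%, stands beside each list's count in this paragraph. Gabrd, the delta subunit of extrasynaptic GABA-A receptors, lay at 22.2, 28 and 35.8 CPM in WT (lowest, median, highest) and at 17, 20.4 and 24.2 CPM with the duplication. It fell by 0.49 ± 0.09 (SE; edgeR adjusted p = 0.00544) with 8 of 11 mice below the WT range, and it was the only member called of 15 GABA receptor subunits (median -0.02, with -0.0790 without WT replicate 5 and -0.000815 without WT replicate 1). Grin2c, an NMDA receptor subunit that astrocytes also express, fell by 0.38 ± 0.07 (SE; edgeR adjusted p = 0.00502) and was the only one called of 22 glutamate receptor subunits (median 0.03, with 0.00552 without WT replicate 5 and 0.0570 without WT replicate 2). Kcnab3, an accessory subunit of potassium channels, fell by 0.45 ± 0.08 (SE; edgeR adjusted p = 0.00371). Kcnq3, a subunit of the M-current channel, rose by 0.24 ± 0.06 (SE; edgeR adjusted p = 0.0373) and was the only one called of 13 potassium channel partners of the segment genes, a call that ended without any 1 of 10 libraries, all but WT replicates 2 and 6, Dp16 replicates 3 and 5 and Dp16_2xIFNRs replicates 1, 2 and 4 (edgeR adjusted p up to 0.123, without WT replicate 5; 0.00579 to 0.209 over 37 alternatives). Ptch1, the receptor of Hedgehog ligands, fell by 0.27 ± 0.06 (SE; edgeR adjusted p = 0.0242) and was the only one called of 15 Hedgehog genes (median -0.07, but -0.00181 without WT replicate 5), a call that ended without WT replicates 2, 3, 4 or 5 (edgeR adjusted p up to 0.0975, without WT replicate 5; 0.00239 to 0.22 over 37 alternatives).

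Some markers of astrocytes fell, beside 0.26% of all genes outside the segment. Of 25 tested markers edgeR called 5 lower and 0 higher (3 higher at an unadjusted p under 0.05, 2 by DESeq2 and 0 by limma-voom). These are Cbs, Tnc, Mfge8, Fgfr3 and Grin2c, and all but Fgfr3 were known to be lower in earlier results of these data when the list was written. Fgfr3, a growth factor receptor, lay at 99.9, 114 and 119 CPM in WT (lowest, median, highest) and at 76.9, 90.7 and 98.1 CPM with the duplication. Its groups did not overlap, and it fell by 0.30 ± 0.05 (SE; edgeR adjusted p = 0.00197). Mfge8, a secreted opsonin that helps phagocytes take up dying cells, lay at 131, 159 and 177 CPM and at 102, 111 and 139 CPM, with 8 of 11 mice below the WT range and a fall of 0.46 ± 0.07 (SE; edgeR adjusted p = 0.000586). The median of the list was -0.07 (-0.103 without WT replicate 4 to -0.0400 without WT replicate 6), against 0.00 for all genes outside the segment, and 7 of 25 were positive. Its summed level was 7081 to 9005 CPM in WT, 7621 to 9004 CPM in Dp16 and 7429 to 8595 CPM in Dp16_2xIFNRs, which overlap. In bulk RNA, fewer cells of a type and less RNA per cell cannot be told apart. With the per-library slope of expression on gene length in the model, which ran from -0.06 to 0.02 in WT and from -0.04 to 0.05 in duplication mice, 25 genes outside the segment were called lower and the median of the astrocyte list was 0.00. In that model the calls of Cbs, Tnc, Mfge8, Fgfr3 and Grin2c held.

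Among genes that mark reactive astrocytes most values lay above 0. EdgeR called 1 of 28, C4b, and at an unadjusted p under 0.05 there were 11 higher and 0 lower. Over all genes outside the segment those shares were 0.604% and 13.2%, both directions together. The median was 0.18 with 25 positive. Gfap, the intermediate filament of astrocytes, had a value of 0.21 (edgeR adjusted p = 0.103), C3 one of 0.89 (edgeR adjusted p = 0.071) and Serping1 one of 0.50 (edgeR adjusted p = 0.152). C4b was known to be higher in Dp16 when this list was written.

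No member of the list of interferon-stimulated genes passed the test in edgeR. Among its 49 tested members 22 were higher and 0 lower at an unadjusted p under 0.05, DESeq2 called 2 higher and limma-voom 0. Of all genes outside the segment, 13.2% had such an unadjusted p in edgeR, both directions together. The list's median was 0.27 with 47 positive, and it stood at 0.22 to 0.31 when each library was left out. Dp16 mice had a median of 0.25 and Dp16_2xIFNRs mice, with the normal number of receptor genes, one of 0.27. These share the WT mice. The lowest p values were those of Ifi204, an innate DNA sensor, at 0.97 (edgeR adjusted p = 0.0742), Samd9l, an antiviral protein, at 0.43 (edgeR adjusted p = 0.0925), and Dtx3l, a ubiquitin ligase, at 0.27 (edgeR adjusted p = 0.149).

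The interferon gamma response had 2 of 24 members called, both guanylate-binding proteins, and a median of 0.30 with 20 positive. All genes outside the segment gave 0.345% called higher. Gbp6 lay at 0.433, 0.548 and 0.815 CPM in WT (lowest, median, highest) and at 0.571, 1.27 and 1.81 CPM with the duplication, with 9 of 11 mice above the WT range, and rose by 1.12 ± 0.24 (SE; edgeR adjusted p = 0.0197). Gbp9 rose by 0.46 ± 0.11 (SE; edgeR adjusted p = 0.0346). These genes have close copies among which counts can be split. The call of Gbp6 ended without WT replicates 1, 3 or 5 (edgeR adjusted p up to 0.0732, without WT replicate 1; 0.00139 to 0.268 over 37 alternatives), and that of Gbp9 without any 1 of 10 libraries, all but WT replicate 2, Dp16 replicates 1, 3, 4 and 6 and Dp16_2xIFNRs replicates 2 and 5 (edgeR adjusted p up to 0.112, without WT replicate 5; 0.00354 to 0.334 over 37 alternatives). The difference between the genotypes, Dp16_2xIFNRs minus Dp16, was 0.45 (95% interval -0.07 to 0.97) for Gbp6 and 0.21 (95% interval -0.03 to 0.45) for Gbp9.

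No gene of antigen presentation by MHC was called in edgeR. Over all genes outside the segment, 13.2% had an unadjusted p under 0.05 in edgeR, both directions together. In MHC class I edgeR called 0 of 12, with 6 higher at an unadjusted p under 0.05, 2 called by DESeq2 and 0 by limma-voom. Its median was 0.24, and H2-K1 was at 0.36 (edgeR adjusted p = 0.117). In MHC class II edgeR called 0 of 9, with 4 higher at an unadjusted p under 0.05, 1 called by DESeq2 and 0 by limma-voom. The median there was 0.38, and 0.58 without the 3 libraries low in choroid plexus markers. H2-Ab1 was at 0.87 (edgeR adjusted p = 0.246). In those 3 libraries, WT replicate 6, Dp16 replicate 6 and Dp16_2xIFNRs replicate 5, H2-Ab1 lay at 1.02, 0.857 and 2.92 CPM, each the lowest of its group. Complement had 1 of 19 called, C4b, and a median of 0.04 (0.00773 without WT replicate 2 to 0.162 without WT replicate 4). All genes outside the segment gave 0.604% called. The fall of Rfx5 thus stood beside class II values of which 8 of 9 were positive.

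Markers of border macrophages and myeloid cells, which reside in the meninges and perivascular spaces or arrive with blood, had 1 of 16 called. Their median was 0.52 with 14 positive. Shares over all genes outside the segment were 0.604% called and 13.2% at an unadjusted p under 0.05 in edgeR. The called gene is Lyz2, a lysozyme, which lay at 8.63, 9.21 and 10.04 CPM in WT (lowest, median, highest) and at 9.81, 15 and 17.9 CPM with the duplication. Of the 11 duplication mice 10 lay above the WT range, and Lyz2 rose by 0.64 ± 0.11 (SE; edgeR adjusted p = 0.00204). The summed level of the list was 27.5 to 31.4 CPM in WT, 28 to 42.7 CPM in Dp16 and 36.9 to 52.2 CPM in Dp16_2xIFNRs. Homeostatic microglia had 0 of 20 called in edgeR, with 1 higher and 5 lower at an unadjusted p under 0.05, 1 lower in DESeq2 and 0 in limma-voom. Their median was -0.05 (-0.0928 without WT replicate 2 to -0.0109 without WT replicate 3) and their summed level 607 to 782 CPM in WT, 622 to 733 CPM in Dp16 and 588 to 735 CPM in Dp16_2xIFNRs.

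Further rises of genes known from myeloid cells lie outside these lists and were singled out after their values were seen. Gpnmb, a membrane protein of phagocytes, rose by 0.58 ± 0.11 (SE; edgeR adjusted p = 0.00609), and Lcp1, the actin-bundling protein of leukocytes, rose by 0.33 ± 0.06 (SE; edgeR adjusted p = 0.00305) with all 11 mice above all WT mice. Fcgr4, an activating receptor for antibodies, and Ifi213, of the interferon-inducible family of DNA sensors, are expressed at very low levels. Fcgr4 had 0 to 7 counts per library in WT and 7 to 27 with the duplication, and rose by 2.07 ± 0.47 (SE; edgeR adjusted p = 0.0301). Ifi213 had 0 to 2 counts in WT and 1 to 16 with the duplication, and rose by 2.76 ± 0.57 (SE; edgeR adjusted p = 0.0147). No WT library held 10 counts of either gene, the minimum of the count filter. Both were therefore tested only through the duplication libraries, and a call that holds where the filter was passed adds no support. The call of Fcgr4 ended without WT replicates 1, 2, 3, 5 or 6 (edgeR adjusted p up to 0.0928, without WT replicate 1; 0.00295 to 0.0928 over 31 alternatives), and that of Ifi213 held in the 14 of 17 fits without 1 library in which the gene passed the count filter. Without the 3 libraries low in choroid plexus markers it did not hold (edgeR adjusted p = 0.0565; 0.00224 to 0.198 over 30 alternatives).

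The promoters of the called genes were searched for the core of the element through which interferon acts on transcription, GAAA followed by any 2 bases and again GAAA, on both strands of the 250 bases before each start (RefSeq sequences, GRCm38.p6). It was present in 978 of 32851 promoters, or 2.98%, and in 5 of the 103 promoters (4.85%) of the 82 called genes outside the segment that the table holds. Those 5 belong to Fcgr4, Ifi213, Gm11681 and Slc25a22, which rose, and Pnrc1, which fell. The call of Slc25a22, the mitochondrial glutamate carrier, ended without WT replicates 1, 3, 4 or 5 (edgeR adjusted p up to 0.0759, without WT replicate 5; 0.00221 to 0.193 over 37 alternatives). The promoters of Fcgr4 and Ifi213 are shown because these genes, with known ties to immune signalling, carry the element at the same distance, its first base 73 bases before the start. This pair was chosen after the matches were seen. In Slc25a22, Pnrc1 and Gm11681 the element began 79, 96 and 194 bases before the start. Promoter sequences of C4b, Gbp6 and Gbp9 were lacking, so these genes were not searched. Capitals mark the match. A match describes the letters and does not show that a factor binds there.

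Fcgr4, chr1:171018676-171018925, plus strand: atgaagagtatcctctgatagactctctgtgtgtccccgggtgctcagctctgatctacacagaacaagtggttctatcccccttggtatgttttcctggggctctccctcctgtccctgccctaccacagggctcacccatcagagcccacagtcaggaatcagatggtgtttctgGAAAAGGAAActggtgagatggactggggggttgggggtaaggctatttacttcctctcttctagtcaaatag

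Ifi213, chr1:173599273-173599522, minus strand: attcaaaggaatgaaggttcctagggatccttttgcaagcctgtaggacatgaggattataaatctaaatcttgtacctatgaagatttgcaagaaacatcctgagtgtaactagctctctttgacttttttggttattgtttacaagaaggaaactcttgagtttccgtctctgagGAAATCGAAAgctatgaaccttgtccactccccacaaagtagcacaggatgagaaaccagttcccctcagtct

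GABAergic interneuron genes had 1 of 29 called, Dlx6os1, a noncoding transcript antisense to Dlx6, a gene of interneuron development. It lay at 14.7, 19.2 and 24.2 CPM in WT (lowest, median, highest) and at 25.3, 28 and 32.2 CPM with the duplication, apart in all 11 mice, and rose by 0.56 ± 0.09 (SE; edgeR adjusted p = 0.00107). The list's median was 0.08 (0.0465 without WT replicate 5 to 0.109 without WT replicate 2). Over all genes outside the segment 0.604% were called. Markers of the neurons proper to the hippocampus had no call in edgeR. Beside each list's median stand here its extremes when 1 library was left out. The median of dentate granule cells was 0.05 (-0.00452 without WT replicate 6 to 0.0625 without Dp16_2xIFNRs replicate 1) over 19 genes. That of CA1 pyramidal cells was 0.11 (0.0574 without WT replicate 4 to 0.170 without WT replicate 2) over 13. That of CA2 was 0.03 (-0.00456 without Dp16_2xIFNRs replicate 3 to 0.0509 without WT replicate 4) over 12 and that of CA3 0.02 (0.0103 without Dp16_2xIFNRs replicate 5 to 0.0542 without WT replicate 3) over 15, so the medians of dentate granule cells and CA2 turned sign. At an unadjusted p under 0.05 these held 0, 3, 2 and 0 higher and 2, 0, 1 and 0 lower genes in that order. Of all genes outside the segment 13.2% had such a p in edgeR, both directions together.

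Cybrd1, a ferric reductase, was the only one called of 22 genes of iron handling. It lay at 2.73, 3.70 and 4.17 CPM in WT (lowest, median, highest) and at 4.38, 5.90 and 7.28 CPM with the duplication, apart in all 11 mice, and rose by 0.69 ± 0.10 (SE; edgeR adjusted p = 0.000211). Selenov was the only one called of 22 selenoproteins, whose median was -0.04. Slc5a5, the sodium-iodide symporter, named after its values were seen, rose by 0.68 ± 0.08 (SE; edgeR adjusted p = 2.09e-05), again without overlap.

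Cytosolic ribosomal protein genes lay slightly lower as a list. EdgeR called 0 of 79, with 57 lower and 0 higher at an unadjusted p under 0.05, 4 lower in DESeq2 and 0 in limma-voom. No member was positive, and the median was -0.19. Nuclear genes of oxidative phosphorylation had 0 of 71 called in edgeR, with 30 lower at an unadjusted p under 0.05, 3 lower in DESeq2 and 0 in limma-voom, and a median of -0.11. Of all genes outside the segment 13.2% had such an unadjusted p in edgeR, both directions together. With the length slope in the model the medians were -0.06 and -0.02. Genes of thalamus and habenula had a median of -0.37 over 19 tested, which became 0.02 without WT replicate 4. Those of meningeal and perivascular fibroblasts had a median of 0.35 over 16 (5 of them higher at an unadjusted p under 0.05) and a summed level of 667 to 820.1 CPM in WT, 490.1 to 1133 CPM in Dp16 and 801 to 1256 CPM in Dp16_2xIFNRs. Their part in the rises above was not tested.

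**Figure D4:**
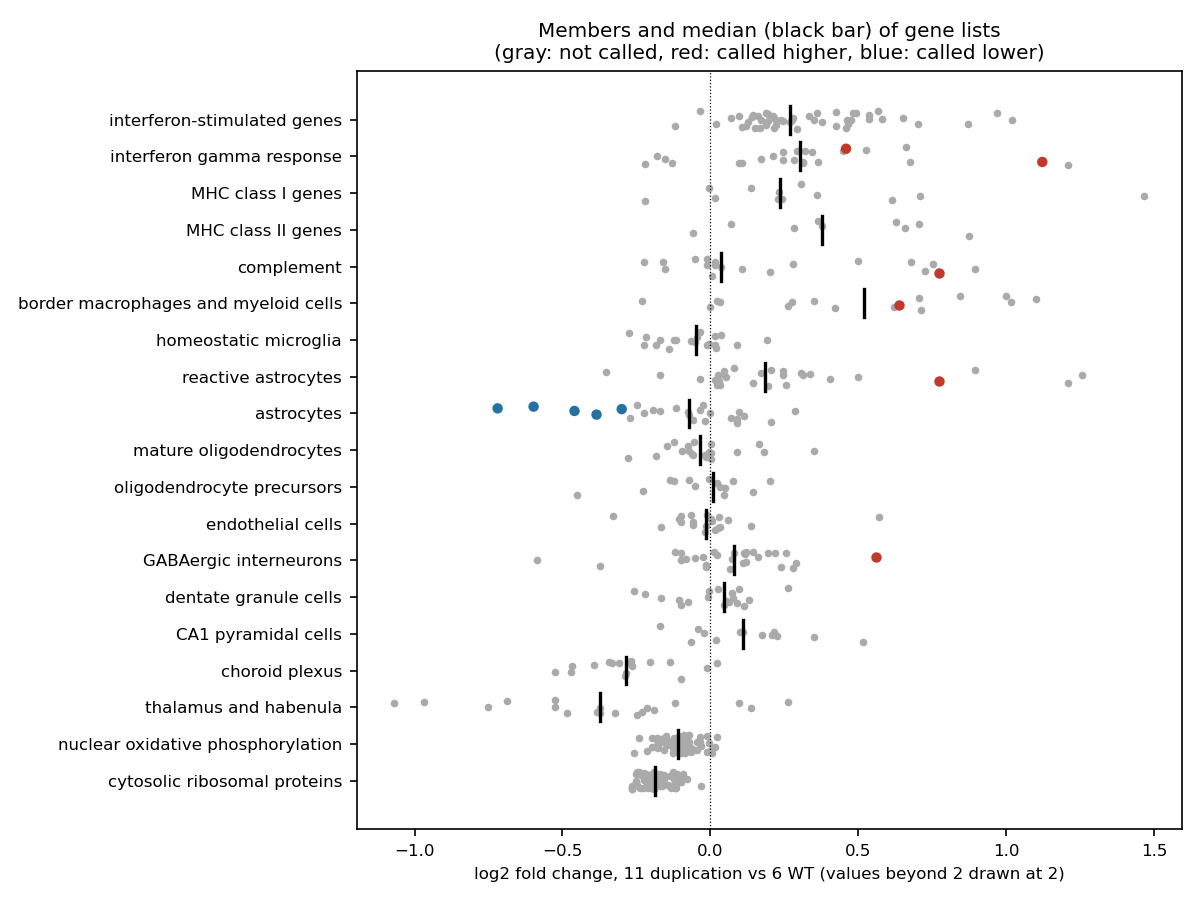
Log2 fold change of the members of 19 gene lists, 11 duplication mice against 6 WT mice, with segment genes left out; points are genes, gray where not called, red where called higher and blue where called lower, and the black bar is the list's median. Interferon, MHC and myeloid lists lie mostly to the right of 0, the 5 called astrocyte genes to the left, and ribosomal proteins form a narrow group below 0.

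Pooling assumes that the duplication genotypes do not differ, and this was tested on its own. Between Dp16_2xIFNRs and Dp16, edgeR called 0 of 18979 genes, with 1939 (10.2%) at an unadjusted p under 0.05, and DESeq2 and limma-voom called 0 as well. The share of 10.2% is larger than chance alone gives on average. For 107 of the 114 called genes outside the segment the 95% interval of the difference held 0, with a median half-width of 0.18 on the log2 scale. The data therefore leave room for differences of that size. The segment's per-mouse value differed by 0.00504 between the genotypes. In the segment, 59 of 66 called genes had an interval that held 0. The pooled call favours genes on which the genotypes agree, so neither count of intervals tests the pooling.

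The 7 genes outside the segment whose interval excluded 0 were singled out after their values were seen, and none passed the adjustment. Gm28322, a long noncoding RNA, had means of 0.174 CPM in WT, 0.598 in Dp16 and 1.70 in Dp16_2xIFNRs, a difference between the genotypes of 1.56 (95% interval 0.88 to 2.24). The other 6, Sall3, Adgrg1, Mfge8, Arhgef10l, Gm17322 and Plekhm2, had all fallen in the pooled comparison and lay lower in Dp16_2xIFNRs than in Dp16. The pooled call of the adhesion receptor Adgrg1 ended without WT replicates 1, 2, 3, 4 or 6 or Dp16_2xIFNRs replicates 4 or 5 (edgeR adjusted p up to 0.107, without WT replicate 1; 0.00265 to 0.344 over 37 alternatives), and that of Arhgef10l without WT replicates 3 or 5 (edgeR adjusted p up to 0.0859, without WT replicate 3; 0.00134 to 0.184 over 37 alternatives). Mfge8 had means of 159, 122 and 109 CPM in WT, Dp16 and Dp16_2xIFNRs, and Sall3 of 6.69, 5.07 and 4.10 CPM. Among the large changes, Cbs differed by -0.02 (95% interval -0.16 to 0.13) and Tfcp2l1 by 0.00 (95% interval -0.21 to 0.22), intervals that held 0. Slc6a12, at 0.32 (95% interval -0.26 to 0.90), and H1f4, at 0.39 (95% interval -0.16 to 0.94), had wide intervals.

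**Figure D5:**
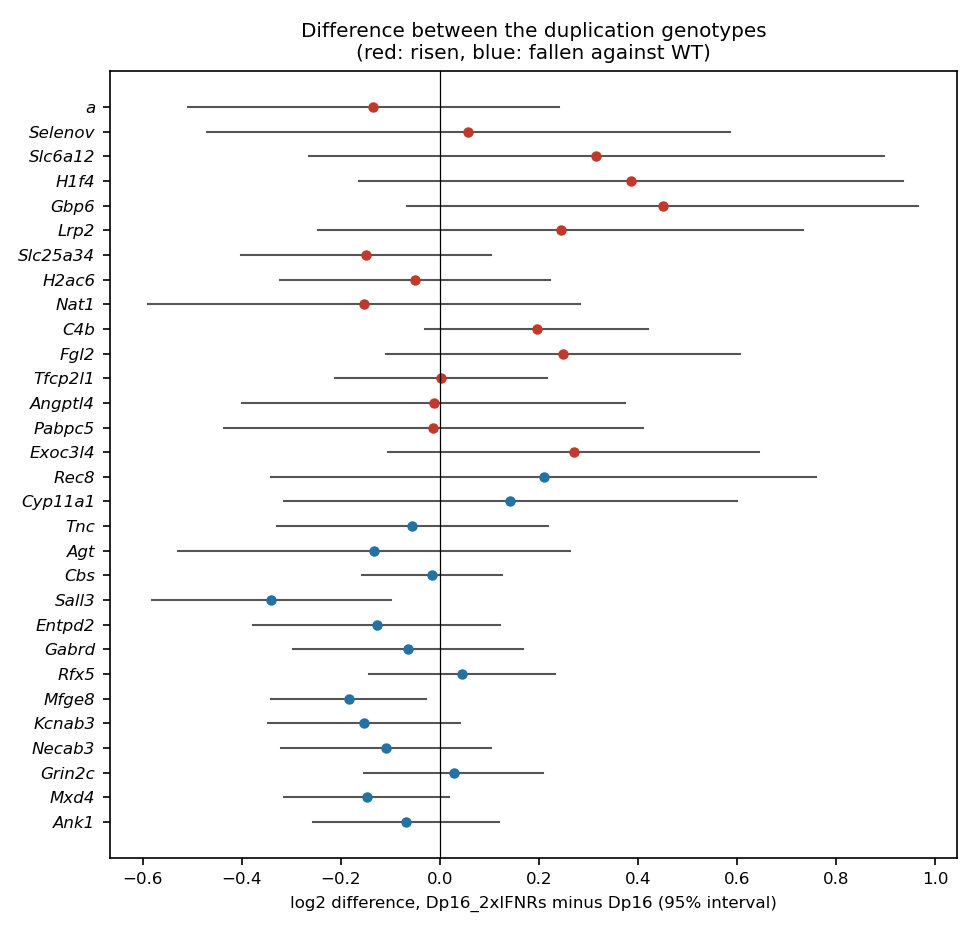
Difference between the duplication genotypes, Dp16_2xIFNRs minus Dp16, on the log2 scale with its 95% interval, for the 15 largest rises (red) and 15 largest falls (blue) outside the segment. All intervals but those of Sall3 and Mfge8 cross 0, and that of Cbs is among the narrowest.

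In 1 fit of all 3 groups, taken separately against the same WT mice, Dp16 gave 25 genes higher (0.133%) and 16 lower (0.0848%) outside the segment, and Dp16_2xIFNRs 59 higher (0.313%) and 71 lower (0.376%). For the called genes the values stood side by side as follows. Selenov was at 1.88 in Dp16 and 1.94 in Dp16_2xIFNRs, Slc25a34 at 0.92 in Dp16 and 0.77 in Dp16_2xIFNRs, and Lrp2 at 0.99 in Dp16 and 1.23 in Dp16_2xIFNRs. Cbs was at -0.59 in Dp16 and -0.61 in Dp16_2xIFNRs, Tnc at -0.69 in Dp16 and -0.75 in Dp16_2xIFNRs, and Rec8 at -1.42 in Dp16 and -1.21 in Dp16_2xIFNRs.

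The effect of the duplication was also compared between the sexes. EdgeR called 0 of 18979 genes for an interaction of duplication and sex, with 575 (3.03%) at an unadjusted p under 0.05, and DESeq2 and limma-voom called 0. Without WT replicate 6 edgeR called 3, Grid2ip, Plcb4 and Plekhd1. With 9 females and 8 males, C4b had log2 fold changes of 0.80 in females and 0.75 in males, Tnc of -0.70 and -0.74, and Lyz2 of 0.71 and 0.56.

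Called genes outside the segment were spread over the genome. Chromosome 4 held the most, 11 of 1092 tested (1.01%). On chromosome 16 itself, 5 of 465 genes outside the segment were called (1.08%). These are Tbx1, a transcription factor of pharyngeal development (-1.18), the peptide transporter Slc15a2 (-0.35), Lztr1 (0.20), Gm36742 (0.82) and Gm49678, all at lower positions than the segment. The call of Tbx1 ended without WT replicates 2, 3 or 5 (edgeR adjusted p up to 0.0737, without WT replicate 3; 0.00147 to 0.222 over 37 alternatives), that of Slc15a2 without WT replicate 3 (edgeR adjusted p up to 0.0545, without WT replicate 3; 0.0003 to 0.0844 over 37 alternatives), that of Lztr1 without WT replicates 1, 3, 4 or 5 or Dp16_2xIFNRs replicate 5 (edgeR adjusted p up to 0.0948, without WT replicate 3; 0.00181 to 0.191 over 37 alternatives) and that of Gm36742 without any 1 of 11 libraries, all but WT replicates 2 and 6, Dp16 replicates 1, 3 and 5 and Dp16_2xIFNRs replicate 4 (edgeR adjusted p up to 0.122, without WT replicate 1; 0.00269 to 0.29 over 37 alternatives). Within 100 kb of each other lay 6 pairs of called genes. Among them are pairs whose genes moved in opposite directions. Slc25a34 rose and Plekhm2, 1913 bases away, fell, and Srsf12 rose and Pnrc1, 12083 bases away, fell. The call of Plekhm2 ended without WT replicate 3 (edgeR adjusted p up to 0.0656, without WT replicate 3; 0.000239 to 0.22 over 37 alternatives) and that of Srsf12 without WT replicates 4, 5 or 6 (edgeR adjusted p up to 0.0787, without WT replicate 5; 0.00194 to 0.157 over 37 alternatives). These genes were singled out after their values were seen.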

How the data were processed

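RNA was measured in the hippocampus of 17 mice, 1 library each, as polyadenylated RNA with a strand-specific kit and paired 150-base reads, per the labels' protocols. The submitters' processing notes list HISAT2 2.1.0, HTSeq 0.6.1, SAMtools 1.5, FastQC 0.11.5 and bcl2fastq, and the build GRCm38. The deposited tables hold, per the file headers, raw counts and RPKM per gene. The gene lengths behind the RPKM values and the strand option used in counting are not given in the sources used here. Each gene's deposited count and RPKM imply 1 length in all libraries.

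Counts were tested with edgeR 4.0.16 in R 4.3.3 (TMM scaling, low genes removed at a minimum count of 10, sex in the model, robust quasi-likelihood test, Benjamini-Hochberg adjustment over all tested genes but the 4 receptors). The scripts were tested on simulated data. There edgeR called 31 of 99 genes changed 1.25-fold and 59 of 98 changed 1.5-fold, with 4 false calls, so changes of these sizes were often missed. Each library was taken as 1 mouse, which the labels do not state outright, and p-values measure the spread between these mice. Totals of 30382648 to 33148281 counts per library leave genes under 1 CPM with few reads, and intervals of counts cover counting error only. The segment was set at chromosome 16, 75540514 to 97962622 (Lipi to Zbtb21), with positions of GENCODE M21, GRCm38, matched by gene ID. The members and the gene lists were chosen with earlier results of these data known. Named genes are the 15 largest rises and falls among called genes of at least 1 CPM with a full name, all tested members of the segment lists, and the called or the 3 leading members of the other lists. Others are marked as chosen after their values were seen. Lists are described by counts and medians. Alternatives were DESeq2 1.42.0 and limma 3.58.1 on counts and on log2 (RPKM + 0.1 or 1), other scalings, filters, covariates and replicate block, each duplication genotype alone, and each library left out. Those with choroid plexus, thalamus or length-slope levels, or without 3 libraries, were added after seeing the data.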

Additional observations from a re-analysis of the deposited data

Results flagged for a closer look

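In 3 named genes 1 WT mouse lay apart from the other 5 by more than Dixon's test allows. Pabpc5 was at 2.35 CPM in WT replicate 2, against 0.793 to 1.17 in the others. Exoc3l4 was at 0.72 CPM in WT replicate 3, against 1.54 to 2.09. Agt was at 45.6 CPM in WT replicate 4, against 19.9 to 22.5. These are 3 of 93 groups of mice tested, where chance gives about 1 in 20. In Agt and Exoc3l4 the mouse apart is on the side away from the duplication mice, and in Pabpc5 on the side towards them.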

How the results depend on the processing

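The number of genes called higher outside the segment, 65, became 172 with DESeq2, 133 at an adjusted p under 0.1, 21 with Dp16 mice only and 38 with Dp16_2xIFNRs mice only, and ran from 39 to 99 without single libraries. The number called lower, 49, became 180 with DESeq2, 113 at an adjusted p under 0.1, 17 with Dp16 mice only, 29 with Dp16_2xIFNRs mice only, 90 and 91 with limma-trend on RPKM + 0.1 and + 1, and 25 with the length slope (added), and ran from 24 to 83 without single libraries. The cause of these shifts was not tested, and the fits with 1 duplication genotype also hold fewer mice. The share of called genes that were higher, 57% in edgeR, was 46.2% with RPKM + 1, 67.1% with the length slope, 45.8% without WT replicate 4 and 44.8% without Dp16 replicate 5. Of the 114 genes called outside the segment, 53 kept the call without each library and 19 under all alternatives with a value, and of the 66 in the segment 60 and 51. Departures from the copy ratio, 2, became 1 with the CPM filter and 5 at an adjusted p under 0.1, and ran from 2 to 5 without single libraries. The interaction with sex gave 0 to 3 genes without single libraries. Segment calls stood at 56 to 78 and the segment's per-mouse difference at 0.461 to 0.571 under all settings run. With the first digit of the mouse identifier's second part in the model, 46 genes were higher and 38 lower outside the segment. Of the 114 calls 75 held there, and the labels do not explain that identifier. With the replicate block, 58 genes were higher and 48 lower outside the segment, 64 were called in it, 2 were off the copy ratio, and 0 differed between the genotypes or by sex. The numbers are only shared labels: deviations of mice that share one had a mean correlation of 0.00809 over 16 pairs, against 0.00385 over 80 other pairs. Signs turned in 4 uncalled genes: Cldn14 was at -0.00485 with Dp16_2xIFNRs mice only, Igsf5 at -0.0384 with the same mice and at -0.0595 to 0.26 without single libraries (below 0 at -0.0595, -0.0573, -0.0250 and -0.0170), Plekhd1 at 0.13 with the thalamus level and at -0.32 to 0.0300 without single libraries, and Gm15966 at 0.0687 with Dp16 mice only, 0.129 with the length slope and -0.160 to 0.0472 without single libraries (above 0 at 0.0109, 0.0274 and 0.0472). Depth limits genes under 1 CPM, of which none was called in the segment by edgeR.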
